A study of Mus musculus with 6 samples.

Results

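S100 proteins are small calcium-binding proteins built on paired EF-hand loops, and vertebrate genomes carry many of them side by side. This account covers 10 S100 genes, chosen by gene name: S100a8, S100a9, S100a1, S100a4, S100a6, S100a10, S100a11, S100a13, S100a14 and S100a16. They were read by 12 probes, out of 23462 named genes and 56605 probes on the array. S100a10 and S100a16 had 2 probes each.

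The arrays compared colon of 3 control mice with colon of 3 Islr knockout mice, all male, with 1 single-colour Agilent array per animal. Islr encodes a secreted protein with leucine-rich repeats and an immunoglobulin domain. The sample source states, for both genotypes alike, a course of 3.5% dextran sulfate sodium (DSS, which damages the lining of the colon) over 5 days and then 1 day of recovery, whereas the treatment field states none. The labels name no promoter, Cre line, strain or age. The design text mentions flow separation without naming a population, and markers of epithelium, smooth muscle, fibroblasts, macrophages and enteric nerves were all measured, so the values describe mixed tissue. In such bulk samples, fewer cells of a type and less RNA per cell cannot be told apart.

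S100A8 and S100A9 pair to form calprotectin, the most abundant protein of the neutrophil cytosol, which withholds zinc and manganese from microbes and signals through TLR4 and RAGE when released. Its level in stool is a routine clinical measure of intestinal inflammation. The other S100 proteins act mainly inside cells: S100A10 binds annexin A2, S100A11 binds annexin A1, S100A6 binds calcyclin-binding protein, S100A4 binds non-muscle myosin, S100A13 takes part in the release of FGF1 and interleukin-1 alpha, and S100A1 acts in muscle. S100A14 is found mainly in epithelia.

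The 250 bases before the start site of S100a8 and S100a9 are shown because these neighbouring genes were the members that changed. They are from RefSeq, build GRCm38.p6, read 5′ to 3′ on each gene's own strand: chr3:90668821-90669070 on the plus strand for S100a8 and chr3:90695722-90695971 on the minus strand for S100a9. Capitals mark the motif matches described next.
S100a8: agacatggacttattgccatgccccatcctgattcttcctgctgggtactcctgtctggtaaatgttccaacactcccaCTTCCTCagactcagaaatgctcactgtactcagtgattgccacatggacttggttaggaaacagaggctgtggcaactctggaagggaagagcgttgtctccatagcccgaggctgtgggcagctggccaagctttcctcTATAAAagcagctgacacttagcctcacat
S100a9: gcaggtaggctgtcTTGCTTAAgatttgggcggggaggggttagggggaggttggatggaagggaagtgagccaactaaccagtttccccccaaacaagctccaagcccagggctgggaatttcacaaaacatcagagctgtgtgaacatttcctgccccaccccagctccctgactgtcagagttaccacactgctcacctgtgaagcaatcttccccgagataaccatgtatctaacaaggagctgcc

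Of the 10 members, 8 had a promoter in the RefSeq table, with 9 start sites in all; S100a10 and S100a14 are named only. A C/EBP-type motif (TTGCNNAA, both strands) was found in 1 member promoter, that of S100a9, 236 bases before the start, and in 9.56% of 32851 promoters of the same length. A PU.1-type motif (GAGGAAG, both strands) was likewise found in 1 member promoter, that of S100a8, 171 bases before the start on the reverse strand, and in 10.6% of all promoters. The TATA box (TATAAA, gene strand) lay 30 bases before the start of S100a8 and 31 before that of S100a4, and 7.59% of promoters held it. An AP-1-type motif (TGANTCA, both strands, 6.75% of promoters) occurred in the promoters of S100a11, 136 and 38 bases before the start, and of S100a16, 192 bases before it. A STAT-type motif (TTCNNNGAA, both strands, 7.02% of promoters) was in no member promoter. None of the matches shown overlap, and each is a match of letters only.

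Values are log2 of the processed signal minus the array's own 75th percentile, so 0 is that percentile. Levels of different probes are not comparable with each other, whereas each probe can be compared between arrays. Spots that the scanner software marked as outliers were left out of the test. They were frequent among bright probes, and they took 15 of the 72 member spots, none of them on control replicate 3 or knockout replicate 3. On each of the 6 arrays, all 12 member probes exceeded the scanner software's limit for a signal well above background. For 9 of them, covering 8 genes, enough usable values were left to test. S100a13 and both S100a10 probes could be tested only with the outlier spots kept, and such values are named as kept.

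The arrays themselves set the frame. The 75th percentile of the signal was 6353 to 7110 intensity units in controls and 4910 to 5820 in knockouts, and 69.4% to 75.4% of spots were well above background. Control and knockout arrays lay in different rows of 1 slide, so row and genotype cannot be told apart. The Islr probe A_51_P140742 fell in the knockouts by 2.44 (SE 0.21, adjusted p = 0.0171), a 5.42-fold lower level, with values of 1.57 (outlier spot), 1.24 and 1.21 in controls and -1.40, -0.93 and -1.31 in knockouts. Without knockout replicate 3 its adjusted p was 0.058, and without control replicate 2 or 3 too few usable spots were left to test it. Over the alternatives that could be run the adjusted p lay between 0.00325 and 0.058. Of 35351 probes tested, 1403 (3.97%) differed at a 5% false discovery rate, 855 lower (2.42%) and 548 higher (1.55%). Higher probes were thus 39.1% of those called, and 51.1% of 2558 with normexp background correction. With control replicates 1, 2 and 3 left out in turn the count was 2114, 71 and 90, and with knockout replicates 1, 2 and 3 left out in turn it was 263, 1150 and 40. The share of higher probes ran from 10% without knockout replicate 3 to 55.1% without control replicate 1. Counting genes by their brightest probe, 628 of 16451 named genes differed (3.82%).

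Within the S100 genes, the 2 calprotectin genes fell, S100a8 15.1-fold and S100a9 13.3-fold, and no other member passed the threshold. S100a8 and S100a9 were thus 2 of the 8 member genes tested, both lower. The median difference of the 8 genes was 0.31, with 5 higher and 3 lower, against a median of 0.01 over all named genes tested. With knockout replicate 2 or 3 left out that median was 0.098 or 0.079, and with quantile normalization it was 0.15. Of the 8, 6 had an unadjusted limma p under 0.05, which 28.2% of the 16451 named genes had; the same share is the background of every such count below. With outlier spots kept, the control and knockout values of 9 of the 12 probes did not overlap, beside 34.9% of 40172 probes across the array. Without control replicate 2, control replicate 3 or knockout replicate 3, no member was called among the 6, 6 and 7 genes then testable, and 1, 2 and 3 of them had an unadjusted p under 0.05 in limma. With arrays weighted by their estimated quality, limma called 6 members, and 27.9% of the named genes.

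S100a8 (probe A_51_P256827) stood at 1.44 (outlier spot), 1.83 and 1.48 in control replicates 1, 2 and 3 and at -3.24, -2.12 and -1.44 in knockout replicates 1, 2 and 3. The groups lay far apart: the lowest control signal was 17282 intensity units and the highest knockout signal 2132. The knockouts also spread widely, with the lowest value in knockout replicate 1 and the highest in knockout replicate 3. The mean was 1.65 ± 0.25 (SD, n = 2 usable spots) in controls and -2.26 ± 0.91 (n = 3) in knockouts. S100a8 fell by 3.92 (SE 0.53, adjusted p = 0.0327), a 15.1-fold lower level, and by 3.85 (SE 0.44, adjusted p = 0.0177) with the outlier spot kept. Among the differences of all tested probes it was the 32nd from the lowest.

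S100a9 (probe A_55_P1998471) stood at 2.37, 2.39 and 2.41 in the controls and at -2.45, -0.97 and -0.60 in knockout replicates 1, 2 and 3. Its control values were nearly identical, with an SD of 0.019 around a mean of 2.39, and its knockout values spread with an SD of 0.97 around -1.34 (n = 3 each). S100a9 fell by 3.73 (SE 0.46, adjusted p = 0.0245), a 13.3-fold lower level, and ranked 42nd from the lowest difference. In intensity units the controls measured 32811 to 37247 and the knockouts 902 to 3797.

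Both calprotectin genes ranked the 3 knockout arrays in the same order. Set against the control mean with the S100a8 outlier spot kept, S100a8 changed by -4.82, -3.70 and -3.02 in knockout replicates 1, 2 and 3, and S100a9 by -4.83, -3.36 and -2.99. Over all 6 arrays the root mean square distance between the 2 centred profiles was 0.185. Their calls rested on particular arrays. Without knockout replicate 3, S100a8 differed by -4.33 (adjusted p = 0.0555), and without control replicate 2 or 3 too few usable spots were left to test it. S100a9 lost its call without control replicate 2 (adjusted p = 0.0673), control replicate 3 (0.0667) and knockout replicate 3 (0.0521). Over every alternative run, the adjusted p ranged from 0.00554 to 0.0555 for S100a8 and from 0.00379 to 0.0673 for S100a9. The difference ran from -4.33 to -3.43 for S100a8 and from -4.10 to -3.18 for S100a9. The direction was the same wherever a test was possible.

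**Figure D1:**
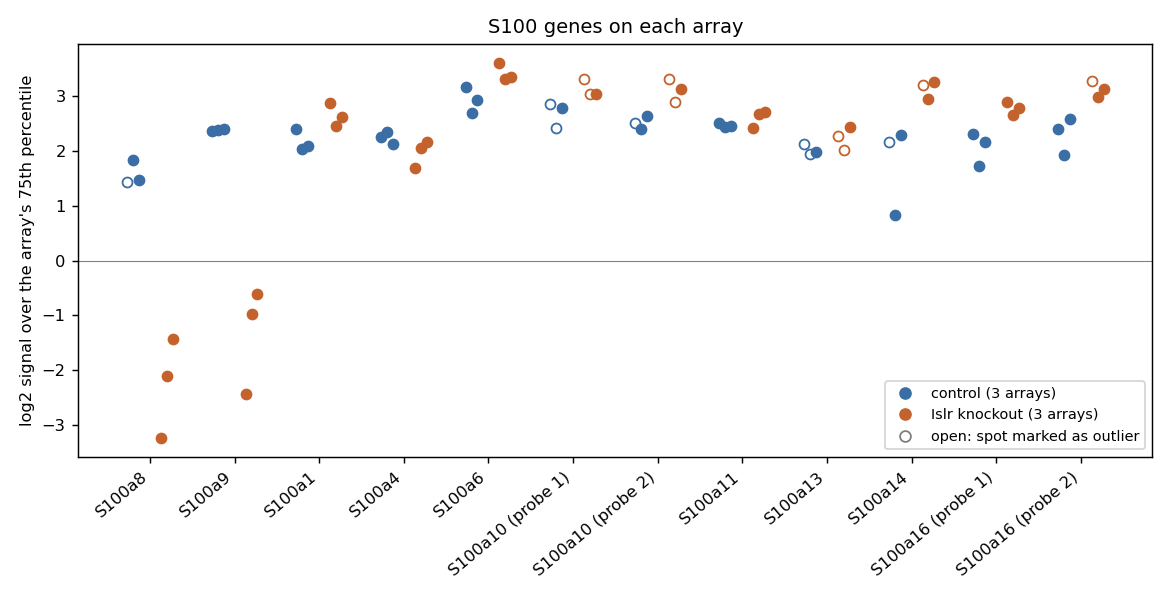
Log2 signal over the array's 75th percentile (y axis) for the 12 probes of the 10 S100 genes (x axis), 1 point per array in the order of replicates 1 to 3, blue for control and orange for Islr knockout; open points are spots marked as outliers. S100a8 and S100a9 are above 0 in every control and below 0 in every knockout, whereas the remaining probes stay above 0 on all 6 arrays.

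S100a14 and S100a16 were higher in every knockout than in every control, without passing the threshold. S100a14 (probe A_51_P419226) measured 2.17 (outlier spot), 0.82 and 2.29 in the controls and 3.20 (outlier spot), 2.95 and 3.27 in the knockouts. Control replicate 2 was the low one, at 0.82. The difference was 1.55 (SE 0.53, adjusted p = 0.153, n = 2 usable per group), and 1.38 (SE 0.39, adjusted p = 0.086) with both outlier spots kept.

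S100a16 was read by a pair of probes that gave like differences. Probe A_55_P2148912 measured 2.31, 1.73 and 2.17 in the controls and 2.90, 2.66 and 2.79 in the knockouts, a difference of 0.72 (SE 0.20, adjusted p = 0.0835). Probe A_66_P114627 measured 2.41, 1.93 and 2.59 against 3.28 (outlier spot), 2.99 and 3.13, a difference of 0.75 (SE 0.25, adjusted p = 0.127). Control replicate 2 was again the lowest array for both probes.

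S100a10, also called p11, is the S100 protein that has lost calcium binding and holds annexin A2 at the plasma membrane, where the complex binds plasminogen. Probe A_51_P342871 measured 2.87, 2.43 and 2.79 in the controls and 3.32, 3.04 and 3.04 in the knockouts, with the first 2 arrays of each group marked as outliers. Its kept difference was 0.44 (SE 0.18, adjusted p = 0.184). Probe A_66_P137316 measured 2.51, 2.40 and 2.64 against 3.31, 2.89 and 3.13, a kept difference of 0.59 (SE 0.17, adjusted p = 0.0891), with control replicate 1 and knockout replicates 1 and 2 marked as outliers. The groups did not overlap for either probe.

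S100a6 encodes calcyclin, a growth-associated S100 protein. Its probe A_51_P281089 measured 3.18, 2.70 and 2.93 in the controls and 3.61, 3.32 and 3.35 in the knockouts, a difference of 0.49 (SE 0.18, adjusted p = 0.150). The lowest knockout lay just above the highest control, and with quantile normalization the difference was 0.34. S100a11 (probe A_55_P2065991), whose protein binds annexin A1 in membrane repair, measured 2.52, 2.44 and 2.45 against 2.42, 2.68 and 2.72. Its groups overlapped, and the difference of 0.14 (SE 0.15, adjusted p = 0.605) turned to -0.01 with quantile normalization.

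S100a4, the metastasin gene expressed in fibroblasts and macrophages, was the only member other than the calprotectin genes with a negative difference, apart from S100a11 under quantile normalization. Probe A_51_P105078 measured 2.26, 2.35 and 2.13 in the controls and 1.70, 2.06 and 2.16 in the knockouts. Knockout replicate 1 was low and knockout replicate 3 lay within the range of the controls. The difference of -0.27 (SE 0.18, adjusted p = 0.367) did not pass the threshold.

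S100a1 and S100a13 completed the set. S100a1 (probe A_55_P1979645) measured 2.40, 2.03 and 2.09 in the controls and 2.88, 2.47 and 2.63 in the knockouts, without overlap, a difference of 0.48 (SE 0.18, adjusted p = 0.155). Before scaling, its signals overlapped, at 27790 to 33591 intensity units in controls and 32172 to 36137 in knockouts. With quantile normalization the S100a1 difference was 0.31. S100a13 (probe A_51_P269852) measured 2.14, 1.95 and 1.98 against 2.27, 2.02 and 2.45, with overlap, and the first 2 arrays of each group were outlier spots. The kept difference of S100a13 was 0.22 (SE 0.17, adjusted p = 0.433). With arrays weighted, the adjusted p passed the threshold for S100a1 (0.0304), S100a6 (0.0276), S100a14 (0.0462) and S100a16 (0.0155 and 0.0323). Over the alternatives that could be run it reached 0.420, 0.433, 0.215, 0.250 and 0.311 for these probes. Leaving out an array was possible in only 2 of 6 cases for S100a14 and in 4 of 6 for S100a16 probe A_66_P114627.

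**Figure D2:**
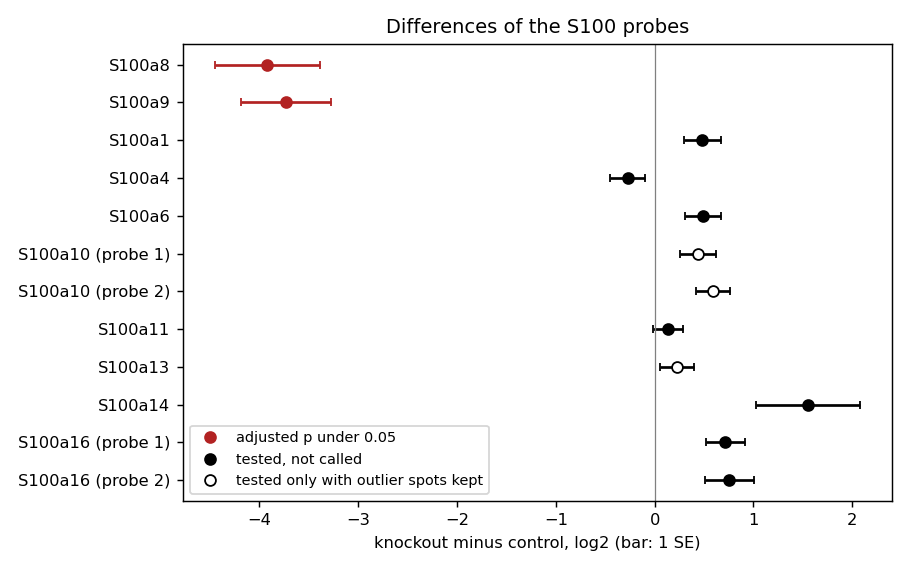
Difference between Islr knockout and control on the log2 scale (x axis) for each S100 probe (y axis), with bars of 1 standard error from limma; red marks an adjusted p under 0.05 and open points were testable only with outlier spots kept. S100a8 at -3.92 and S100a9 at -3.73 stand apart from the other probes, which lie between -0.27 and 1.55.

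Epithelial markers, like most members, were higher in the knockouts. Of 12 epithelial marker genes (keratins, Epcam, Cdh1, Vil1, Cdx2, Lgals4, Muc2, Car1 and Slc26a3), 10 were tested and all 10 differences were positive, with a median of 1.08 that was 0.52 without control replicate 2. None was called by limma, and 2 had an unadjusted p under 0.05. Their summed level, in units of the array's 75th percentile, was 82.1, 26.6 and 59.8 in control replicates 1, 2 and 3 and 121.8, 93.4 and 93.9 in the knockouts. All 12 were well above background on every array. The array with the lowest sum, control replicate 2, was also the lowest for S100a14, S100a16, S100a6, S100a1, S100a10 and S100a13. S100a11 and S100a4, like S100a8 and S100a9, were lowest in knockout replicate 1, the array with the highest sum. A low control replicate 2 was not particular to epithelial markers. Control replicate 2 also had the lowest sums of smooth muscle (45.1) and squamous markers (8.39), and the highest 75th percentile (7110 intensity units). The fibroblast and macrophage sums were lowest in a knockout (32.6 and 25.6). The part of epithelial RNA in these S100 differences was not tested.

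**Figure D3:**
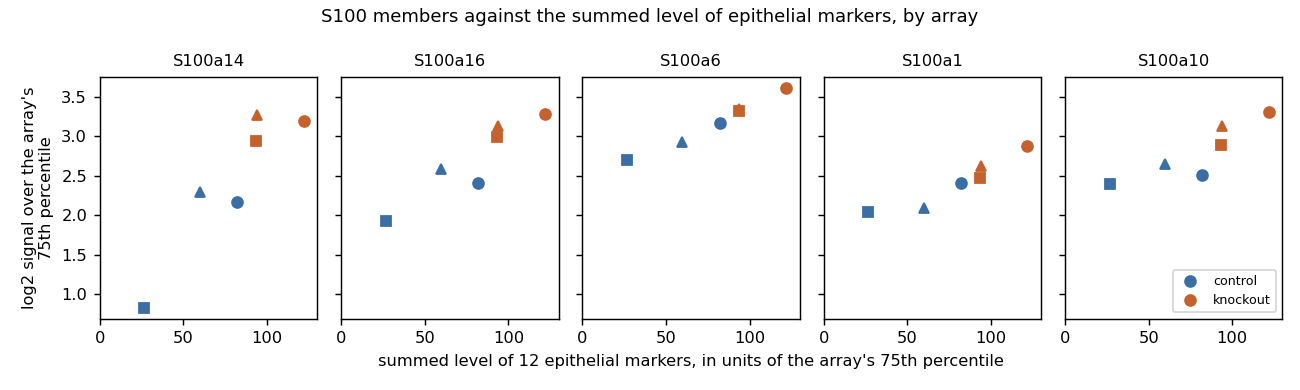
Log2 signal over the array's 75th percentile (y axis) of S100a14, S100a16 (probe A_66_P114627), S100a6, S100a1 and S100a10 (probe A_66_P137316) against the summed level of 12 epithelial marker genes in units of that percentile (x axis), 1 point per array; circles, squares and triangles are replicates 1, 2 and 3, blue control and orange knockout. In each panel control replicate 2, with a sum of 26.6, is the lowest point, and all knockouts lie at sums of 93.4 and above. The panels hold only members that were higher in every knockout than in every control, with 1 probe each. Not shown are S100a13, also lowest in control replicate 2, and the other S100a16 and S100a10 probes. S100a11 (2.42), S100a4 (1.70), S100a8 and S100a9, lowest in knockout replicate 1 with a sum of 121.8, are not shown either.

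Other tissue markers gave further values beside the members. The 9 fibroblast markers tested were all lower (median -0.63, and -0.42 without knockout replicate 1), with summed levels of 52.0 to 59.8 in controls and 32.6 to 45.5 in knockouts. Of these only Pdgfrb, a receptor of fibroblasts and pericytes, was called (-1.17, SE 0.20, adjusted p = 0.0395), and it lost the call without any one of the 6 arrays (0.0504 to 0.111). Macrophage markers were lower in 9 of 10 tested (median -0.76; sums 30.9 to 41.1 against 25.6 to 30.9), with 0 called by limma and 7 at an unadjusted p under 0.05. S100a4, known from both cell types, had the small difference given above, and the part of these cells in it was not tested.

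Muscle markers lay mostly on the other side. All 6 smooth muscle markers tested were higher (median 0.36; sums 45.1 to 56.3 in controls and 62.4 to 72.6 in knockouts), with 0 called by limma and 2 at an unadjusted p under 0.05. Of 8 skeletal muscle markers tested, 7 were higher and 1 lower. Their median was 0.56, and 0.13 with only probes above background on all arrays. Their sums overlapped, at 2.08 to 2.84 in controls and 2.46 to 4.65 in knockouts. Only 2 of them, fast myosin heavy chain genes, were called. Myh1 rose by 2.07 (SE 0.19, adjusted p = 0.0160). Myh2, which was not well above background in any control, rose to a level at least 4.61-fold higher (adjusted p = 0.0103). That bound sets the mean of the knockouts against the higher, on each control array, of the probe's own value and the dimmest well-measured signal. It applies only to the processing described below, not to the alternatives. Myh1 lost its call without control replicate 3 or knockout replicate 3 (highest adjusted p 0.0531), and Myh2 kept it with each array left out. S100a1, known from striated muscle, was 0.48 higher beside them; their part in it was not tested.

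The remaining marker lists held no called gene. Squamous markers had a median of 0.47 over 7 tested, and of 0.29 without control replicate 1 (2 with an unadjusted p under 0.05 in limma), with summed levels of 8.39 to 10.7 in controls and 10.4 to 11.8 in knockouts, and Sprr3 and Dsg3 not well above background on any array. Enteric glia and neuron markers were lower in 6 of 6 (median -0.67, 2 at an unadjusted p under 0.05), and endothelial markers in 5 of 5 (median -1.36, and -0.72 without knockout replicate 1; 4 at an unadjusted p under 0.05). Adipocyte markers were higher in 3 of 4 tested and T cell markers lower in 4 of 5, with none at an unadjusted p under 0.05, and the median of either list changed sign when single arrays were left out.

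Among S100 genes outside the 10, S100g rose. It encodes calbindin-D9k, a vitamin D responsive calcium buffer of the intestinal epithelium. Its probe A_51_P118545 measured -5.21, -6.33 and -4.07 in the controls, where 2 of 3 arrays were well above background, and 0.22, -1.53 and -2.16 in the knockouts. The groups did not overlap, and the difference was 4.05 (SE 0.76, adjusted p = 0.0441). The call was lost when any of the 6 arrays was left out, at adjusted p from 0.0579 to 0.108. The probe met the filter on dim probes only through the knockout arrays. Without that filter its adjusted p was 0.0690. With probes required to be above background on all arrays it could not be tested. Of the other 6 S100 genes in this list, S100a3 (0.04, adjusted p = 0.943) and S100b (-0.08, adjusted p = 0.825) were tested, S100z was not testable, and S100a5, S100a7a and S100a7l2 were not well above background on any array. The fused-type S100 genes of skin barrier proteins were mostly dim: 2 of 6 on the array were tested, Tchh (0.48) and Crnn (1.19), with 0 called by limma and 0 at an unadjusted p under 0.05.

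In gene order on chromosome 3, the changed members were immediate neighbours. RefSeq lists 31 genes over the 2 stretches that hold the members and their flanking genes, of which 20 were on the array, 13 were tested and 2 were called, S100a8 and S100a9. On the side of S100a6, S100a7a was not well above background on any array and S100a6 itself differed by 0.49. On the other side, Pglyrp4, S100a7l2 and Pglyrp3 were not well above background on any array, so no neighbour on that side gave a value. S100a2, between S100a3 and S100a4 and named after its value was seen, differed by 0.74 (SE 0.20, adjusted p = 0.0822). The flanking genes Ilf2, Snapin and Chtop differed by -0.38, -0.11 and -0.12.

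**Figure D4:**
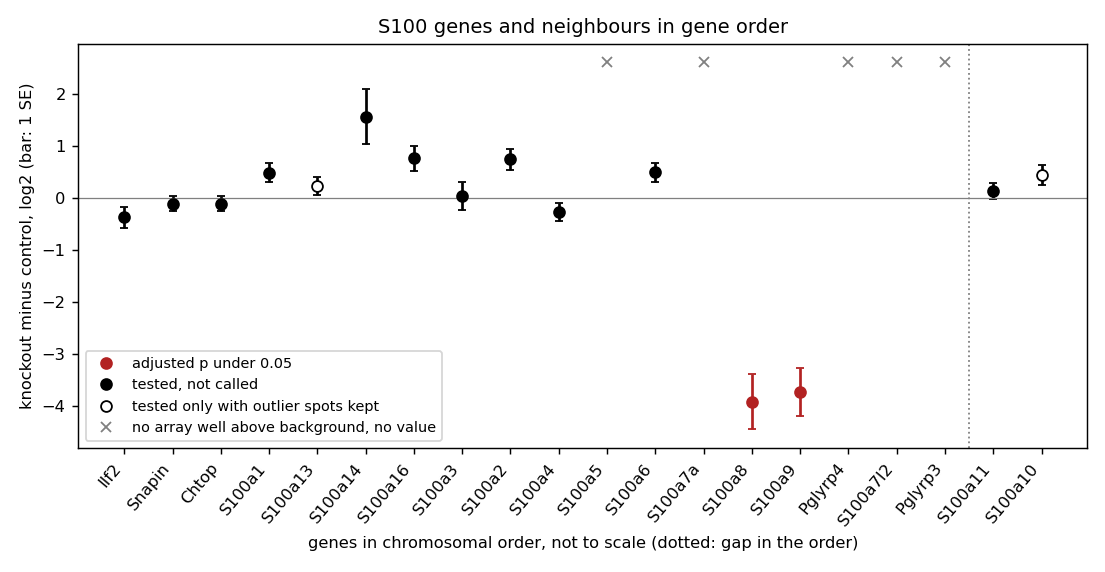
Difference between Islr knockout and control on the log2 scale with bars of 1 standard error (y axis) for S100 genes and neighbours on the array in their order along chromosome 3 (x axis, not to scale; the dotted line marks a gap in the order). S100a8 and S100a9 in red are the called genes, open points were testable only with outlier spots kept (for S100a10, probe A_51_P342871), and crosses mark 5 genes with no array well above background.

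Receptors of extracellular S100 proteins and their signalling genes held no call. Of 9 genes, 8 were tested, 4 higher and 4 lower, and their median of 0.07 turned to -0.27 with the mean over all probes of a gene; limma called 0, and 1 had an unadjusted p under 0.05. Tlr4, the lipopolysaccharide receptor that calprotectin also engages, measured 1.09, 0.84 and 0.86 in controls and 0.66 (outlier spot), 0.50 and 0.62 in knockouts. Those groups did not overlap, and the difference was -0.37 (SE 0.18, adjusted p = 0.251). Ager, which encodes RAGE, differed by 0.30 by its brightest probe (SE 0.20, adjusted p = 0.375), and its 5 probes ranged from -1.06 to 0.30. Cd36, a fatty acid transporter that takes up calprotectin-bound arachidonic acid, had the lowest value, -1.67 (SE 0.58, adjusted p = 0.129).

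Intracellular partners of the S100 proteins likewise gave no call by their brightest probe. Of 15, 14 were tested, 8 higher and 6 lower, with a median of 0.11 (-0.05 with quantile normalization) and 6 at an unadjusted p under 0.05 in limma. Anxa2, the partner of S100a10, measured 2.65, 2.22 and 2.62 in controls and 3.17, 2.96 and 2.97 in knockouts by probe A_55_P2110713. Its groups did not overlap, and its difference of 0.54 (SE 0.18, adjusted p = 0.117) stood beside 0.44 and 0.59 for S100a10. Anxa1, the partner of S100a11, differed by 0.08 (SE 0.23, adjusted p = 0.844) by probe A_55_P2092826. Ahnak, a scaffold bound by the S100A10 and annexin A2 complex, differed by 0.81 (SE 0.19, adjusted p = 0.0657). Il1a, a cargo of S100A13 release, differed by -3.09 (SE 0.83, adjusted p = 0.0799). Fgf1, another S100A13 cargo, rose by 1.68 (SE 0.28, adjusted p = 0.0362) by the dim probe A_52_P538673, while its brightest probe differed by 0.26 (adjusted p = 0.286). The dim probe lost its call without any array but control replicate 1, with adjusted p up to 0.0996.

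Genes known to induce or regulate S100a8 and S100a9 were mostly lower, and 1 was called. Of 12, 11 were tested, 9 of them lower, with 3 at an unadjusted p under 0.05. Their median of -0.40 moved to -0.14 with control replicate 3 left out, and to -0.22, -0.72 and -0.82 with knockout replicates 1, 2 and 3 left out in turn. Csf3, the cytokine G-CSF that drives neutrophil production, was well above background in all 3 controls and in no knockout. Its level was at least 14.3-fold lower in knockouts (adjusted p = 0.0169), by the bound described for Myh2. Over the alternatives run, the smallest Csf3 difference was -3.58, short of that bound of 3.84 on the log2 scale. Without knockout replicate 3 its adjusted p was 0.0535, and without control replicate 2 or 3 it could not be tested.

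The cytokine genes among these varied widely between arrays. Il6 measured -0.49, 0.97 and 1.23 in controls and -5.75, -2.08 and -2.61 in knockouts, without overlap, a difference of -4.05 (SE 0.99, adjusted p = 0.0671). Il1b measured 2.15 (outlier spot), 2.11 and 2.25 against -1.81, 0.36 and 1.63, also without overlap, a difference of -2.12 (SE 0.96, adjusted p = 0.226). For both genes knockout replicate 1 was the lowest array, as it was for S100a8 and S100a9. Of the transcription factors, Cebpb measured 2.79 (outlier spot), 2.78 and 2.93 against 2.09, 2.57 and 2.70, a difference of -0.40 (SE 0.24, adjusted p = 0.333). Spi1, which encodes PU.1, differed by -1.32 (adjusted p = 0.115), and Tnf by 0.14.

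A list of other metal-withholding proteins and of granule proteins moved in both directions. Of 6 genes, 5 were tested and 3 were called. Lcn2, the siderophore-binding lipocalin made by neutrophils and inflamed epithelium, measured 2.73, 2.35 and 2.27 in controls and 0.19, 1.09 and 0.60 in knockouts by probe A_55_P2070869. It fell by 1.82 (SE 0.26, adjusted p = 0.0302). Camp, the cathelicidin gene, fell by 1.20 (SE 0.17, adjusted p = 0.0287).

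Ltf, which encodes the iron-binding lactoferrin of neutrophil granules and secretory epithelia, went the opposite way. It measured -5.08, -4.83 and -4.38 in controls and -0.90 (outlier spot), -1.80 and -0.41 in knockouts, and rose by 3.66 (SE 0.45, adjusted p = 0.0299). Slc11a1, a metal transporter of phagosomes, and Hp, haptoglobin, differed by -1.92 (adjusted p = 0.0707) and -1.77 (adjusted p = 0.231). Ngp was not well above background on any array. Without control replicate 2 or 3, Ltf, Camp and Lcn2 lost their calls, and without knockout replicate 1 or 3 Camp and Lcn2 did, with adjusted p up to 0.0843 among them; Ltf could not be tested without knockout replicate 2 or 3.

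Neutrophil markers were measured because calprotectin fills these cells. Of 12 markers 9 were tested, 7 lower and 2 higher, with a median of -2.47, and 5 fell. Retnlg, a resistin-like protein of neutrophils, measured 1.55 (outlier spot), 1.70 and 1.11 in controls and -3.73, -2.68 and -2.77 in knockouts, and fell by 4.47 (SE 0.39, adjusted p = 0.0173). Mmp8, the neutrophil collagenase, fell by 3.85 (SE 0.39, adjusted p = 0.0171), and 2 of 3 knockout arrays were well above background. Clec4d, a myeloid lectin receptor, fell by 3.52 (SE 0.69, adjusted p = 0.0468), Mmp9, gelatinase B, by 2.86 (SE 0.56, adjusted p = 0.0468) and Cxcr2, the chemokine receptor of mature neutrophils, by 1.93 (SE 0.22, adjusted p = 0.0211).

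The other neutrophil markers did not all follow. Fpr1, a formyl peptide receptor, differed by -2.47 (adjusted p = 0.0633), Mpo, myeloperoxidase, by -0.20 (adjusted p = 0.464) and Csf3r, the G-CSF receptor, by 0.17 (adjusted p = 0.483). The probes of Trem1 disagreed, with 0.18 (adjusted p = 0.494) by the bright one and -3.07 (adjusted p = 0.119) by a dim one, and Elane, neutrophil elastase, was not well above background on any array. Ly6g, the surface antigen used to sort neutrophils, and Stfa2l1 were testable only with outlier spots kept. Both were higher in every knockout than in every control, with kept differences of 0.78 (SE 0.25, adjusted p = 0.106) and 1.45 (SE 0.39, adjusted p = 0.0781). The summed level of all 12 markers was 25.5 to 32.1 in controls and 26.7 to 29.2 in knockouts, so it overlapped. Csf3r, Trem1 and Ly6g made up 74.5% of it in controls and 95.6% in knockouts, so that overlap rests on these 3 bright probes. These 3 were singled out after their values were seen. The part of neutrophil number in the fall of S100a8 and S100a9 was not tested.

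The calls of these markers rested on single arrays as those of calprotectin did. Retnlg lost its call without knockout replicate 3 (adjusted p = 0.0539) and was untestable without control replicate 2 or 3, and Mmp8 lost it without control replicate 2 (0.0569). Cxcr2 lost it when control replicate 2 or 3, or knockout replicate 1 or 3, was left out (up to 0.0609). Mmp9 and Clec4d lost it without any array but knockout replicate 2 (up to 0.128 and 0.118).

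**Figure D5:**
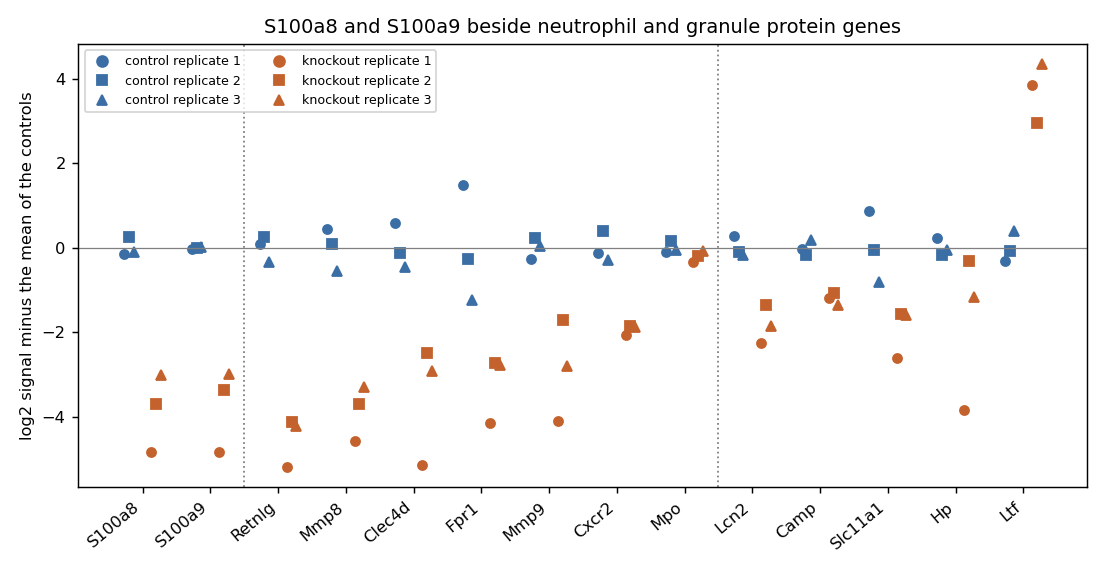
Log2 signal minus the mean of the 3 controls (y axis, outlier spots kept) for S100a8 and S100a9, then neutrophil marker genes, then metal-withholding and granule protein genes (x axis, dotted lines between the sets), with circles, squares and triangles for replicates 1, 2 and 3 in blue (control) and orange (knockout). Knockout replicate 1 is the lowest array for S100a8, S100a9 and most of the neutrophil genes shown, Mpo lies near 0 in both groups, and Ltf lies above its controls in every knockout. The neutrophil genes shown are only the 7 tested markers with a negative difference. Csf3r and Trem1, higher by their brightest probe, and Ly6g and Stfa2l1, higher with outlier spots kept, are not shown, nor is Elane.

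Among probes with a usable value on all 6 arrays, the genes whose profile lay nearest to that of calprotectin were the same for both members. There were 30240 such probes. Probes that lacked a usable value because of outlier spots, such as that of Retnlg, could not enter. S100a8 itself was compared with its outlier spot kept. By root mean square distance between profiles centred on the control mean, the 5 nearest named genes to each were Papln, Mmp8, Mirt2, Ptges and Twist2. From S100a8 their distances were 0.291, 0.343, 0.344, 0.464 and 0.481, and from S100a9 0.313 (by another Papln probe), 0.371, 0.382, 0.357 and 0.382. S100a8 and S100a9 were closer to each other, at 0.185, than either was to any of these. Ptges encodes the inducible prostaglandin E synthase, Twist2 a mesenchymal transcription factor, Papln an extracellular matrix protein and Mirt2 a long non-coding RNA.

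All 5 fell, as closeness to the profile of S100a8 requires, so their falls are a description. The differences were -3.46 for Ptges, well above background on all 3 knockout arrays, and -3.87 for Twist2 and -3.85 for Mmp8, above it on 2. Mirt2 and the Papln probe nearest S100a8 were above background on no knockout array. By the bound described for Myh2, their levels were at least 5.90-fold and at least 5.34-fold lower. With normexp background correction their differences were -2.30 and -2.15, short of these bounds of 2.56 and 2.42 on the log2 scale. The other Papln probe was above background on 1 knockout array, and its difference of -3.63 became -2.13 with normexp background correction. Nearness of these dim probes to the calprotectin profile rests in part on knockout values that were not measured above background.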

How the data were processed

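RNA of 6 mouse colon samples (3 control, 3 Islr knockout, grouped by the genotype label; no replicate numbers are shared) was extracted with TRIzol and amplified, per the labels' protocols. The deposited processed signal is an intensity on a linear scale, background-subtracted and spatially detrended but not scaled between arrays, per the file headers. The labels name Cy3, a green column and Feature Extraction 10.7 (the submitters' processing notes); the file headers give 11.5.1.1, design 074809 and a red channel alone, which was used. The deposited value table, also intensity, served as an alternative.

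Log2 signals were scaled to each array's 75th percentile, outlier spots removed and spots of a probe averaged. Probes well above background on all 3 arrays of a group, with 2 usable values per group, were tested with limma 3.58.1 in R 4.3.3 (lmFit and eBayes, two-sided), with Benjamini-Hochberg adjustment over all 35351 probes at 5%. SEs are limma's moderated ones. The number of arrays limits precision: an exact permutation test of 3 against 3 cannot go below 0.1. Names came from the probes' RefSeq accession through GRCm38.p6 (59.7% of probes); the files use build mm9, so no probe coordinates are given. The brightest probe stood for a gene in lists, and summed levels add linear signals over the 75th percentile. Bright probes weigh most in these sums, although levels of different probes are not comparable. The fit was tested on simulated data.

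The members and lists were chosen with earlier results of these data known. Genes named were all members, Islr, called list members, list genes with a stated role, and the 5 nearest profiles; further list genes and S100a2 were named after their values were seen. P-values measure the spread between these animals only. Alternatives were normexp correction (offset 50), quantile and median scaling, a percentile over detected probes, both other filters, outlier spots kept, array weights, the value table, mean over probes and leaving out each array.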

Additional observations from a re-analysis of the deposited data

How the results depend on the processing

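No paired analysis was possible because the labels give the groups no shared replicate numbers. The count of 1403 probes became 2558 with normexp, 2185 with quantile scaling, 2249 with median centring, 484 without a filter on dim probes and 9292 with array weights, and 40 to 2114 with an array left out. The share of higher probes was 39.1% as reported and 51.1% with normexp, and 10% to 55.1% with an array left out. Islr kept its direction (-2.58 to -2.34 in the 4 of 6 fits with an array left out that could be run; without control replicate 2 or 3 it was untestable). The number of S100 members called was 1 without the dim filter, 6 with array weights and 0 to 2 with an array left out. Their median difference was 0.15 with quantile scaling and 0.079 to 0.38 with an array left out; S100a11 turned to -0.015 with quantile scaling. S100a8 missed the threshold without the dim filter (adjusted p = 0.0524). The cause of these shifts was not tested. Of 20 called probes of list and nearest genes, 18 lost the call with some array left out and 0 changed direction. Under other processing, S100g, Pdgfrb, Clec4d, Mmp9, the dim Fgf1 probe and a Papln probe also lost it, at adjusted p up to 0.0741. The number of arrays and the outlier spots among bright probes limit these values; dim knockout values lie near background.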
